A study of Mus musculus with 16 samples.

Results

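Krüppel-like factors (KLFs) were followed at the RNA level in mouse embryonic stem (ES) cells in which a repeat-directed activator, the germ cell factor A-MYB, or both were switched on. The 9 genes described are Klf2, Klf3, Klf4, Klf5, Klf6, Klf9, Klf10, Klf13 and Klf16, named individually from the ES cell count tables, which hold 23420 genes. All 9 were among the 14664 genes that passed the filter on low counts. Klf2, Klf4 and Klf5 were set against the other 6.

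RNA-seq libraries came from J1 ES cells of the 129S4/SvJae strain at passage 36, harvested on day 3 and kept feeder-free in 2i/LIF medium. Cells of every group, controls included, carried a transposon-borne cassette with dCas9-VPR, an inactive Cas9 joined to transcriptional activation domains, a guide RNA to the endogenous retroviral repeat RLTR10B2, and DsRed. The 4 groups of 2 libraries were Dox + A-MYB cells, with doxycycline (Dox, 1 µg/ml) and A-MYB expression, Dox cells with doxycycline alone, A-MYB cells with A-MYB expression alone, and control cells with neither. Every Dox library analysed here also had the activator and the RLTR10B2 guide, so effects of the drug, the activator and the guide cannot be told apart. Whether the lines were single clones or pools, and whether the libraries of a group came from separate cultures, is not given in the labels or files used, so p-values measure only the spread between these libraries, which may be technical. For 1 closing observation, 4 H3K27ac libraries of pachytene spermatocytes were used, 2 from A-myb mutant (repro9 homozygous) and 2 from wild-type C57BL/6J mice of 8 to 12 weeks.

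KLFs are zinc finger transcription factors that bind GC-rich and CACCC-type DNA through a shared carboxy-terminal domain, while their diverse amino-terminal parts recruit coactivators or corepressors. In naive mouse ES cells Klf2, Klf4 and Klf5 are known for overlapping roles in sustaining self-renewal. Klf4 lies downstream of LIF and STAT3 in these cells, and Klf2 is maintained when MEK is inhibited, as it is in 2i medium. Of the others, Klf3 is a repressor that recruits CtBP, Klf10 is a TGF-beta-inducible early gene, Klf9 responds to glucocorticoids, and Klf9, Klf10, Klf13 and Klf16 bind the corepressor SIN3A.

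The stretch of 250 bases before the annotated start is shown for Klf2 and Klf4, whose ES cell roles are the best known of the set and which both fell in Dox + A-MYB cells, for Klf13, which had the largest fall, and for Klf6, which rose. These RefSeq sequences are of build GRCm38.p6, and the submitters' processing notes name mm10. Of the 9 genes, 6 matched an entry in the promoter table, namely Klf2, Klf3, Klf4, Klf6, Klf9 and Klf13. Capitals mark the GC box (GGGCGG) and the CACCC box (CACCC), searched on both strands.
Klf2, chr8:72318812-72319061, + strand: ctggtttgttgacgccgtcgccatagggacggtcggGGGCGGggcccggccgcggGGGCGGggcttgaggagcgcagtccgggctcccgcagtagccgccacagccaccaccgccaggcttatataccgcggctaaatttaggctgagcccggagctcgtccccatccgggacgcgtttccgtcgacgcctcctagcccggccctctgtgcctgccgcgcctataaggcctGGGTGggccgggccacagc
Klf4, chr4:55532476-55532725, - strand: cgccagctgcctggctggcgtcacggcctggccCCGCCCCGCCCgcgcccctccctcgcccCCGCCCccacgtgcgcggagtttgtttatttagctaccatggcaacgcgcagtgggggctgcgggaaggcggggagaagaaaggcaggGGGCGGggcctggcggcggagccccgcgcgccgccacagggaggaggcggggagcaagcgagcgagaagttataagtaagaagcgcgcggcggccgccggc
Klf13, chr7:63938916-63939165, - strand: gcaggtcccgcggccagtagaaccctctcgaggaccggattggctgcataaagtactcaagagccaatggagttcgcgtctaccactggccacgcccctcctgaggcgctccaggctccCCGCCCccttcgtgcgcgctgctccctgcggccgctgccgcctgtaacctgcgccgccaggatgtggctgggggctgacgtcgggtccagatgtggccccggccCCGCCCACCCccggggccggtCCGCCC
Klf6, chr13:5861239-5861488, + strand: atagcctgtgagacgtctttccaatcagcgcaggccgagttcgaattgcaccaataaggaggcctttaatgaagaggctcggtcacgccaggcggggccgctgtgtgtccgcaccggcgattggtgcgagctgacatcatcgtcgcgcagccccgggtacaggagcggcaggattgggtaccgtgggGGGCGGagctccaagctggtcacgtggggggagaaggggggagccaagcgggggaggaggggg

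The GC box occurred 2 times before Klf2, 4 times before Klf4, 3 times before Klf13 and 1 time before Klf6, and 6 times before Klf3. Klf9 had no match. A GC box was present in 32.7% of 32841 promoter windows of this length. The CACCC box was found 1 time each before Klf2, Klf13 and Klf9 and 5 times before Klf3, against a match in 52.0% of all windows. In Klf3 and in Klf13, 1 GC box match overlapped a CACCC match. These windows were GC-rich, with 71.2% in Klf2, 78.4% in Klf3, 74.0% in Klf4, 64.8% in Klf6, 59.6% in Klf9 and 71.6% in Klf13, against a median of 52.4% over all windows. A MYB element (TAACNG or CAACNG, both strands) was in none of the 6 windows and in 43.1% of all windows. A STAT site (TTCNNNGAA) was in the Klf9 window alone of the 6, and in 7.02% of all windows. Such letter matches describe the windows and are not binding sites.

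Gene counts ran from 26995317 to 33771487 per library, and the libraries of a group differed beyond counting noise (chi-square over its degrees of freedom 5.59 to 14.4). Both Dox + A-MYB libraries lay outside the range of the others in genes detected: 17602 and 17554 genes had a count there, against 16027 to 16512 in the other 6 libraries. Reads on no annotated feature made up 9.43% and 8.8% of their reads, against 7.28% to 8.34% elsewhere. Mybl1, which encodes A-MYB, had 19.9 and 16.6 CPM in Dox + A-MYB libraries, 11.0 and 10.2 CPM in Dox libraries, 22.0 and 17.8 CPM in A-MYB libraries and 8.38 and 6.92 CPM in control libraries, so the libraries with A-MYB lay above those without it. Mybl1 rose with A-MYB without Dox (log2 fold change 1.38, adjusted p = 1.24e-07) and also with Dox alone (0.47, adjusted p = 0.0167). Whether reads of an introduced A-MYB sequence are counted under Mybl1 is not given in the labels. CPM here are counts scaled to the TMM-adjusted size of each library, and they are not corrected for gene length, so levels are compared between groups and not between genes.

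With both treatments together, 7 of the 9 Klf genes fell and 2 rose against control cells, while either treatment alone called 5 of them. Klf2 and Klf13 fell the most, to about 0.40 of the control level. Klf10 rose 2.65-fold and Klf6 1.89-fold. Klf4 was higher with Dox alone and lower with Dox in the presence of A-MYB. The changes were tested with edgeR's quasi-likelihood test, and p-values are Benjamini-Hochberg adjusted over all 14664 tested genes throughout, with a threshold of 0.05. Against control, 63.9% of all tested genes were called in Dox + A-MYB cells (33.5% higher, 30.4% lower). Among the 3350 genes whose mean level lay in the range of the 9 (63.4 to 343 CPM), 73.6% were called (25.6% higher, 48% lower). The 9 calls of 9 are thus to be read against a background in which most genes of this level changed. Of the genes in this range, Dox alone called 46.2% and A-MYB alone 52.6%, so 5 calls of 9 were near the background. Both counts of 5 also depended on single libraries.

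**Figure D1:**
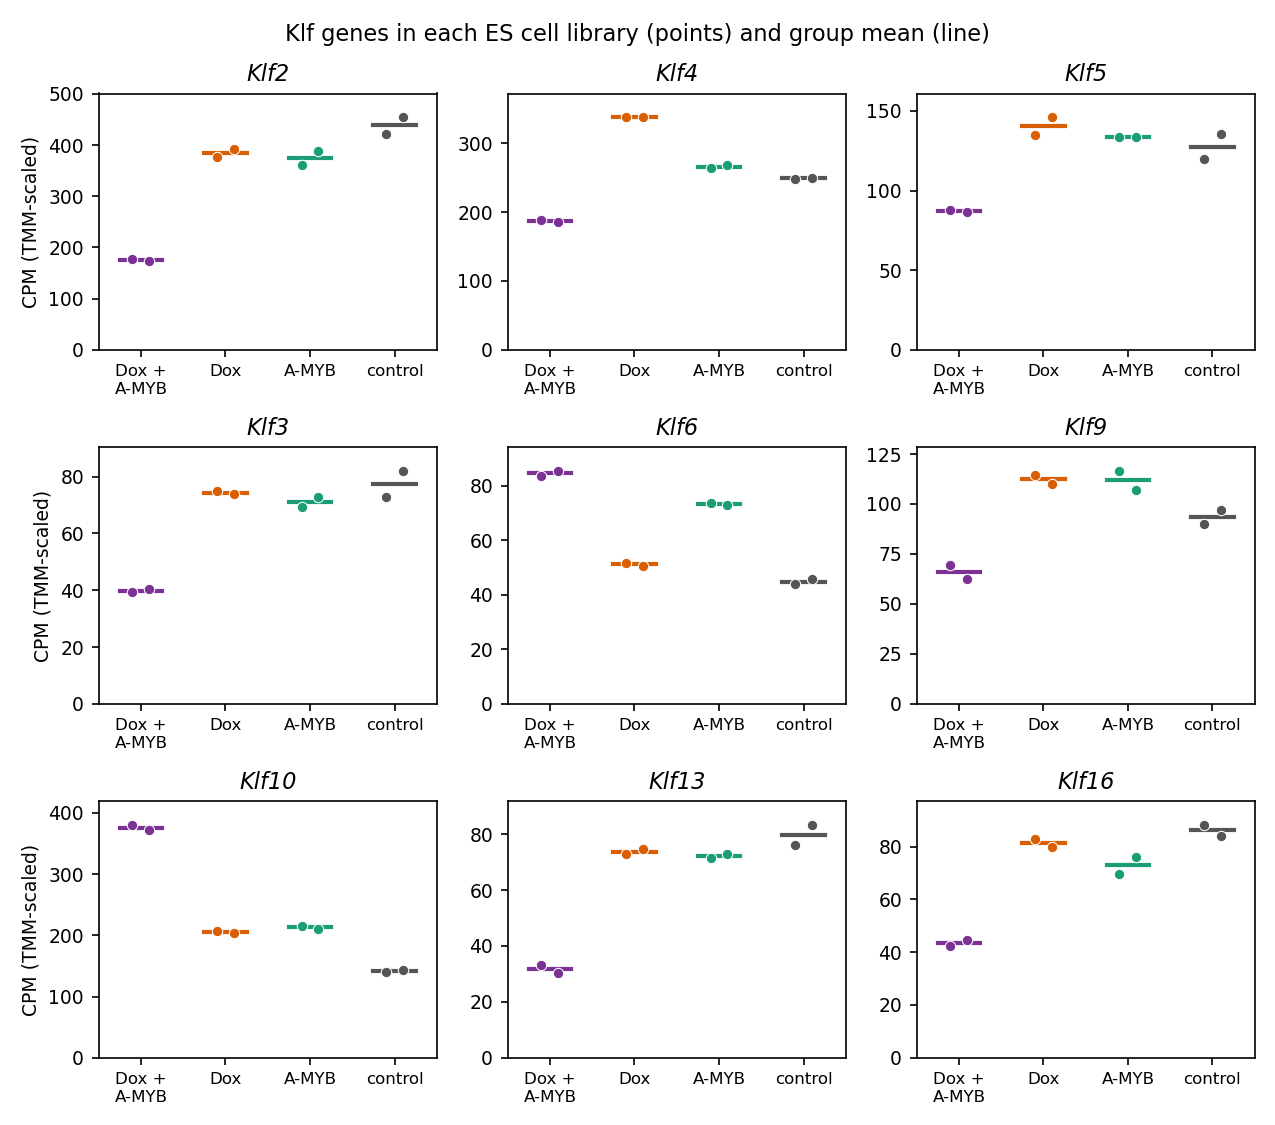
TMM-scaled CPM (y axis, linear from 0, its own scale in each panel) of the 9 Klf genes in the 4 groups (x axis). Points are the 2 libraries of a group and lines their mean. In 7 panels the Dox + A-MYB points lie below all other groups; for Klf6 and Klf10 they lie above. Against control alone, both Dox + A-MYB libraries lay above both control libraries in 42.8% and below them in 37.8% of all tested genes.

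Klf2, which sustains naive self-renewal, had 178 and 174 CPM in Dox + A-MYB libraries, 377 and 392 CPM in Dox libraries, 362 and 388 CPM in A-MYB libraries and 422 and 455 CPM in control libraries. The Dox + A-MYB libraries were far below the rest, the Dox and A-MYB libraries overlapped, and both controls were the highest. Klf2 was lower in Dox + A-MYB than in control cells (log2 fold change -1.32, SE 0.0594, adjusted p = 5.08e-16). The single treatments gave -0.19 for Dox (SE 0.0581, adjusted p = 0.0136) and -0.23 for A-MYB (SE 0.0581, adjusted p = 0.00356). The Dox call did not hold without Dox library 1 (adjusted p = 0.173), without control library 2 (adjusted p = 0.122) or when libraries were scaled by total counts (adjusted p = 0.0530).

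Klf4, a reprogramming factor and target of LIF signalling, had 189 and 185 CPM in Dox + A-MYB libraries, 338 and 338 CPM in Dox libraries, 263 and 269 CPM in A-MYB libraries and 248 and 250 CPM in control libraries. No 2 groups overlapped, with Dox highest and Dox + A-MYB lowest. Klf4 rose with Dox alone (log2 fold change 0.44, SE 0.0547, adjusted p = 1.12e-06). It was higher in Dox than in A-MYB cells as well (log2 fold change 0.35, SE 0.0546, adjusted p = 0.000105). A-MYB alone gave 0.09 (SE 0.0548, adjusted p = 0.192), which did not pass. In the presence of A-MYB, Klf4 was lower with Dox (log2 fold change -0.51, SE 0.0550, adjusted p = 1.99e-08), and in the presence of Dox it was lower with A-MYB (-0.85, SE 0.0550, adjusted p = 1.94e-12).

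Klf5, which acts beside Klf2 and Klf4 in ES cells, had 87.7 and 86.4 CPM in Dox + A-MYB libraries, 135 and 146 CPM in Dox libraries, 134 and 134 CPM in A-MYB libraries and 120 and 135 CPM in control libraries. The Dox + A-MYB libraries were the lowest, and the control range overlapped those of the Dox and the A-MYB cells. Neither single treatment passed the test (Dox 0.14, SE 0.0676, adjusted p = 0.123; A-MYB 0.07, SE 0.0677, adjusted p = 0.474). Under total-count scaling the Dox value passed, at 0.18 with an adjusted p of 0.0432. With both treatments Klf5 fell against control (log2 fold change -0.55, SE 0.0683, adjusted p = 1.18e-07).

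The other 6 genes did not form 1 pattern: 4 fell in Dox + A-MYB cells and 2 rose. Klf3, the CtBP-recruiting repressor, had 39.3 and 40.5 CPM in Dox + A-MYB libraries, 74.8 and 74.0 CPM in Dox libraries, 69.3 and 72.8 CPM in A-MYB libraries and 73.0 and 82.1 CPM in control libraries. It fell with both treatments (log2 fold change -0.96, SE 0.0771, adjusted p = 5.19e-11). The Dox + A-MYB libraries lay below all others, and the Dox and control libraries overlapped. The single treatments, at -0.06 for Dox and -0.12 for A-MYB, did not pass (adjusted p = 0.595 and 0.213).

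Klf13, a SIN3A-binding factor known from T lymphocytes, had 33.1 and 30.4 CPM in Dox + A-MYB libraries, 72.8 and 74.5 CPM in Dox libraries, 71.4 and 72.9 CPM in A-MYB libraries and 76.0 and 83.4 CPM in control libraries. The Dox + A-MYB libraries were far below the rest, the Dox and A-MYB libraries overlapped, and the controls were highest. Its fall against control was the largest of the 9, at -1.33 (SE 0.0781, adjusted p = 1.18e-13), next to that of Klf2, from which it differed by far less than their SE. Neither single treatment passed (Dox -0.11, adjusted p = 0.263; A-MYB -0.14, adjusted p = 0.148). Klf16, another SIN3A-binding member, had 42.3 and 44.7 CPM in Dox + A-MYB libraries, 82.7 and 79.9 CPM in Dox libraries, 69.8 and 76.1 CPM in A-MYB libraries and 88.2 and 84.1 CPM in control libraries. It fell with both treatments (log2 fold change -0.99, SE 0.0747, adjusted p = 1.71e-11) and with A-MYB alone (-0.24, SE 0.0732, adjusted p = 0.0123), and no groups overlapped. The A-MYB call was lost without A-MYB library 1 (adjusted p = 0.0970) or control library 1 (adjusted p = 0.0743). Dox alone gave -0.08 for Klf16 and did not pass (adjusted p = 0.407).

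Klf9, which responds to glucocorticoids in many tissues, had 69.6 and 62.4 CPM in Dox + A-MYB libraries, 115 and 110 CPM in Dox libraries, 117 and 107 CPM in A-MYB libraries and 90.1 and 97.1 CPM in control libraries. The libraries with 1 treatment lay above the controls and those with both lay below them. Klf9 rose with Dox alone (log2 fold change 0.26, SE 0.0722, adjusted p = 0.00684) and with A-MYB alone (0.26, SE 0.0723, adjusted p = 0.00744), and fell with both (-0.50, SE 0.0732, adjusted p = 1.43e-06). Each rise was lost without single libraries. That with Dox gave adjusted p = 0.0858 without Dox library 1 and 0.174 without control library 1. The rise with A-MYB gave adjusted p = 0.195 without A-MYB library 1 and 0.186 without control library 1.

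Klf10, the TGF-beta-inducible early gene, had 381 and 371 CPM in Dox + A-MYB libraries, 206 and 204 CPM in Dox libraries, 215 and 211 CPM in A-MYB libraries and 140 and 144 CPM in control libraries. No 2 groups overlapped. Controls were lowest and Dox + A-MYB cells highest, so these extremes were the reverse of those of Klf2. Klf10 rose in each comparison with control: by 0.53 with Dox (SE 0.0567, adjusted p = 1.05e-07), by 0.59 with A-MYB (SE 0.0567, adjusted p = 4.55e-08) and by 1.41 with both (SE 0.0570, adjusted p = 5.40e-17). Its change with both treatments was the largest of the 9 in size. Dox and A-MYB cells were not told apart for Klf10 by the test (-0.06, SE 0.0560, adjusted p = 0.572).

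Klf6, a broadly expressed regulator of growth, had 83.5 and 85.4 CPM in Dox + A-MYB libraries, 51.8 and 50.7 CPM in Dox libraries, 73.6 and 72.9 CPM in A-MYB libraries and 44.0 and 45.6 CPM in control libraries. The 2 groups with A-MYB were above the 2 without it, with no overlap. Klf6 rose with A-MYB both without Dox (0.71, SE 0.0734, adjusted p = 1.25e-07) and with Dox (0.72, SE 0.0718, adjusted p = 5.68e-09). It was lower in Dox than in A-MYB cells (-0.51, SE 0.0724, adjusted p = 2.48e-05). The Dox effect on Klf6 was small, at 0.20 without A-MYB (SE 0.0740, adjusted p = 0.0448) and 0.21 with it (SE 0.0709, adjusted p = 0.0149). The call without A-MYB was lost under DESeq2 (adjusted p = 0.103), DESeq2-type size factors in edgeR (0.0887), no filter on low counts (0.0563), a fit of the contrast's groups alone (0.0610) and the removal of each of the 4 libraries in turn (0.127 to 0.291). With A-MYB present the call was lost without Dox + A-MYB library 2 or either A-MYB library, with adjusted p between 0.0532 and 0.0770.

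Counted over the 9 genes, Dox alone called 4 higher and 1 lower, against 32.2% of all tested genes called (17.9% higher, 14.3% lower). A-MYB alone called 3 higher and 2 lower, against 34.7% (19.5% higher, 15.2% lower). Dox in the presence of A-MYB called 2 higher and 7 lower, against 58.9% (28.5% higher, 30.4% lower), and A-MYB in the presence of Dox likewise called Klf6 and Klf10 higher and the other 7 lower, against 55.2% (26.8% higher, 28.4% lower). Between Dox and A-MYB cells only Klf4 and Klf6 were called, 1 in each direction, against 12% (5.05% higher, 6.94% lower). Among genes in the same range of level, the called share was 46.2% for Dox alone (27.4% higher, 18.8% lower) and 52.6% for A-MYB alone (29.4% higher, 23.2% lower). It was 69.2% for Dox with A-MYB (17% higher, 52.2% lower), 66.5% for A-MYB with Dox (15.5% higher, 51% lower) and 17.8% for Dox against A-MYB (7.34% higher, 10.4% lower). The contrasts share libraries, so these counts are not independent. In bulk RNA, fewer cells of a type and less RNA per cell cannot be told apart.

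Klf2, Klf4 and Klf5 did not stand out from the other 6 by their medians. With both treatments against control, the median log2 fold change was -0.55 for the 3 and -0.73 for the other 6, against 0.05 for all tested genes and -0.13 for genes in the same range of level. With Dox alone the medians were 0.14 and 0.07, against 0.03 for all genes, and with A-MYB alone 0.07 and 0.07, against -0.0047. Scaling by total counts in place of TMM raised the median change of all tested genes in Dox + A-MYB against control to 0.28, and the calls to 6946 higher and 2796 lower, where TMM gave 4906 higher and 4462 lower. Under that scaling the falls were smaller, at -0.18 in Klf4, -0.32 in Klf5 and -0.27 in Klf9, all still called, and no call of a Klf gene changed direction.

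**Figure D2:**
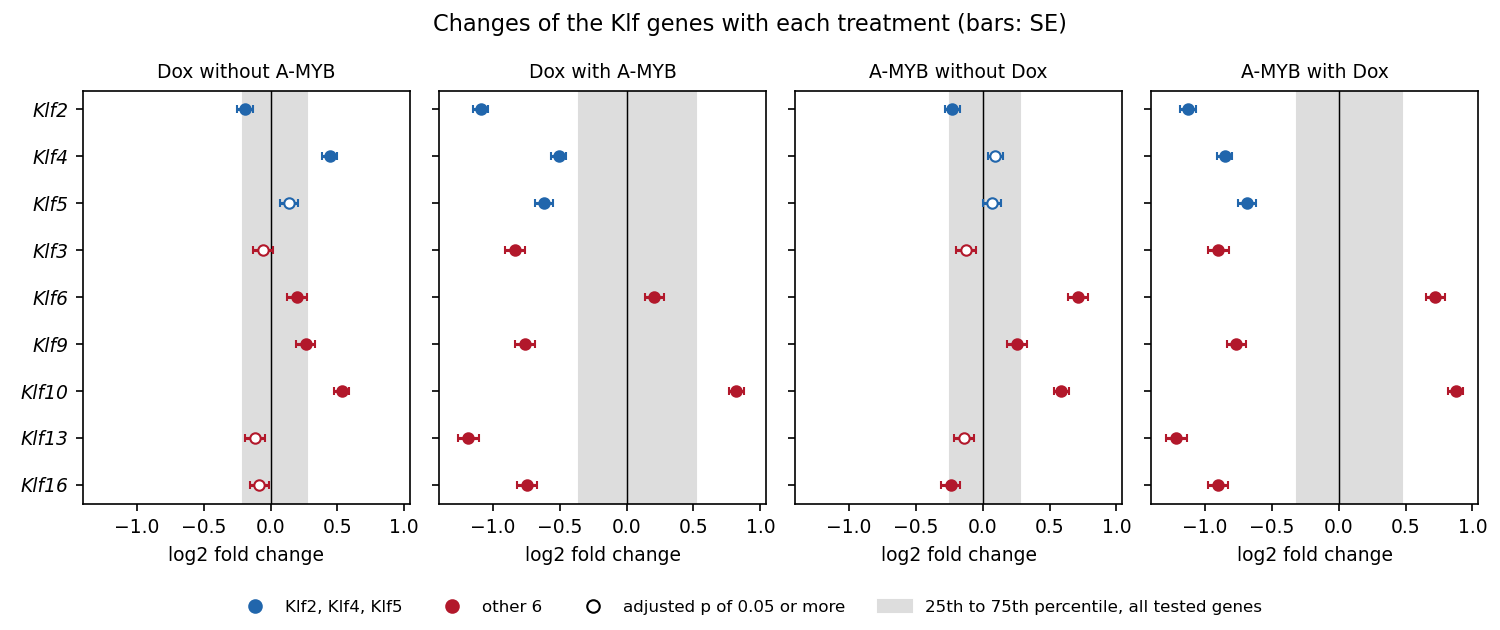
Log2 fold changes (x axis) of the 9 Klf genes (y axis) for Dox and A-MYB, each without and with the other, with bars of 1 SE. Blue marks Klf2, Klf4 and Klf5, red the other 6, open points an adjusted p of 0.05 or more, and grey bands the 25th to 75th percentile of all tested genes. In both panels with the other treatment present, 7 genes lie left of the band.

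The response to both treatments was not the sum of the single responses for 8 of the 9 genes. The interaction subtracts the Dox effect without A-MYB from that with A-MYB. It passed the test in 7 genes below 0 and in Klf10 above 0, against 40.9% of all tested genes (16.4% higher, 24.5% lower). Of genes in the same range of level, 58.2% passed (11% higher, 47.2% lower). Klf4 had a summed single change of 0.54 and an observed change of -0.41, an interaction of -0.95 (SE 0.0776, adjusted p = 1.50e-09). Klf9 had a sum of 0.52 and an observed change of -0.50 (interaction -1.02, SE 0.103, adjusted p = 3.59e-08), and Klf5 a sum of 0.21 and an observed change of -0.55 (interaction -0.76, SE 0.0960, adjusted p = 1.08e-06). In these 3 genes the observed change thus had the opposite sign to the sum. For Klf5 neither single change was called, so the sign of its sum is uncertain.

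In Klf2, Klf3, Klf13 and Klf16 the sums were negative and the observed falls larger. Klf2 had a sum of -0.42 and an interaction of -0.90 (SE 0.0826, adjusted p = 9.82e-09). The interactions of Klf3, Klf13 and Klf16 were -0.78, -1.07 and -0.66 (adjusted p = 3.41e-06, 3.94e-08 and 1.76e-05). Klf10 rose by more than its sum of 1.12, with an interaction of 0.29 (SE 0.0793, adjusted p = 0.00527). Klf6 had a sum of 0.91 and an observed change of 0.92, and its interaction of 0.01 (SE 0.103, adjusted p = 0.951) did not pass. The median interaction was -0.90 over Klf2, Klf4 and Klf5 and -0.72 over the other 6, against -0.0025 over all tested genes and -0.21 over genes in the same range of level.

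**Figure D3:**
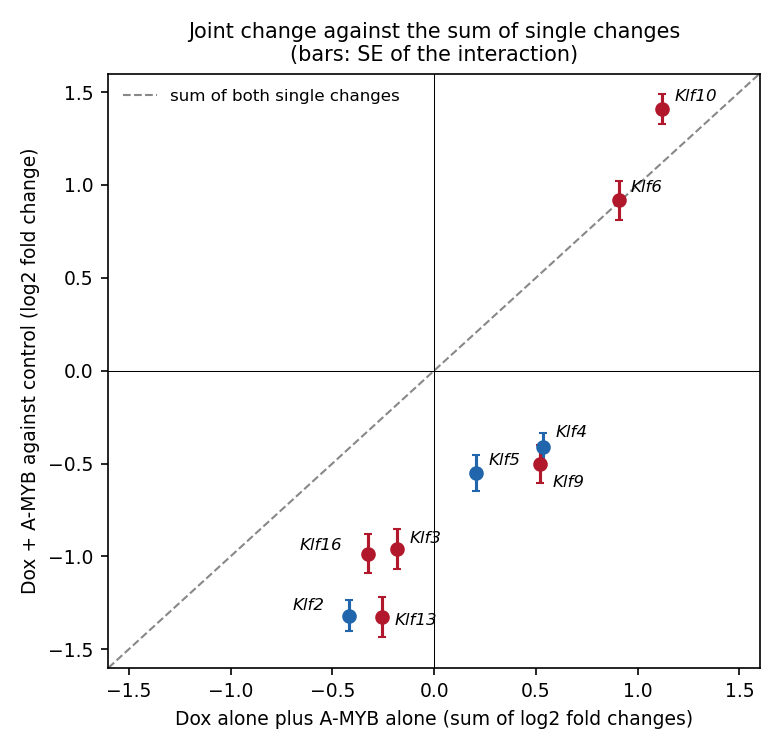
Log2 fold change of Dox + A-MYB against control (y axis) plotted against the sum of the changes with Dox alone and A-MYB alone (x axis), one point per Klf gene, with bars of 1 SE of the interaction (blue, Klf2, Klf4 and Klf5; red, the other 6). Klf6 lies on the dashed line of equality, Klf10 above it and the other 7 below it, with Klf4, Klf5 and Klf9 in the quadrant of opposite sign.

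The make-up of the Klf counts within each library, which does not depend on scaling between libraries, shifted as well. Klf2, Klf4 and Klf5 supplied 41.2% and 41.2% of the counts of the 9 genes in Dox + A-MYB libraries, 58.5% and 59.7% in Dox libraries, 55.2% and 56.4% in A-MYB libraries and 60.7% and 61.1% in control libraries. The Dox + A-MYB libraries were lowest, the A-MYB libraries next, and the Dox and control groups did not overlap. Klf10 alone supplied 34.5% and 34.4% in Dox + A-MYB libraries, 14.2% and 13.9% in Dox libraries, 15.7% and 15.0% in A-MYB libraries and 10.7% and 10.4% in control libraries. The shares of Klf3, Klf9, Klf13 and Klf16 were also lowest in Dox + A-MYB libraries. A lower share was thus not particular to Klf2, Klf4 and Klf5. The shares are not corrected for length, so only the same share is compared across libraries.

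Within the set of 3, Klf4 gained on Klf2 with each treatment. There were 1.06 and 1.07 Klf4 counts per Klf2 count in Dox + A-MYB libraries, 0.898 and 0.863 in Dox libraries, 0.728 and 0.692 in A-MYB libraries and 0.589 and 0.549 in control libraries. These 4 groups did not overlap. The Klf10 counts per Klf2 count were 2.14 and 2.14 in Dox + A-MYB libraries, 0.548 and 0.519 in Dox libraries, 0.596 and 0.543 in A-MYB libraries and 0.331 and 0.316 in control libraries, with overlap only between Dox and A-MYB libraries. In summed CPM, Klf2, Klf4 and Klf5 had 455 and 445 in Dox + A-MYB libraries, 849 and 877 in Dox libraries, 759 and 790 in A-MYB libraries and 791 and 840 in control libraries. The other 6 together had 648 and 635 in Dox + A-MYB libraries, 603 and 593 in Dox libraries, 616 and 612 in A-MYB libraries and 511 and 536 in control libraries. The summed level of Klf2, Klf4 and Klf5 thus dropped in Dox + A-MYB libraries. The sum of the other 6 was highest there through Klf10 and Klf6, although Klf3, Klf9, Klf13 and Klf16 fell.

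**Figure D4:**
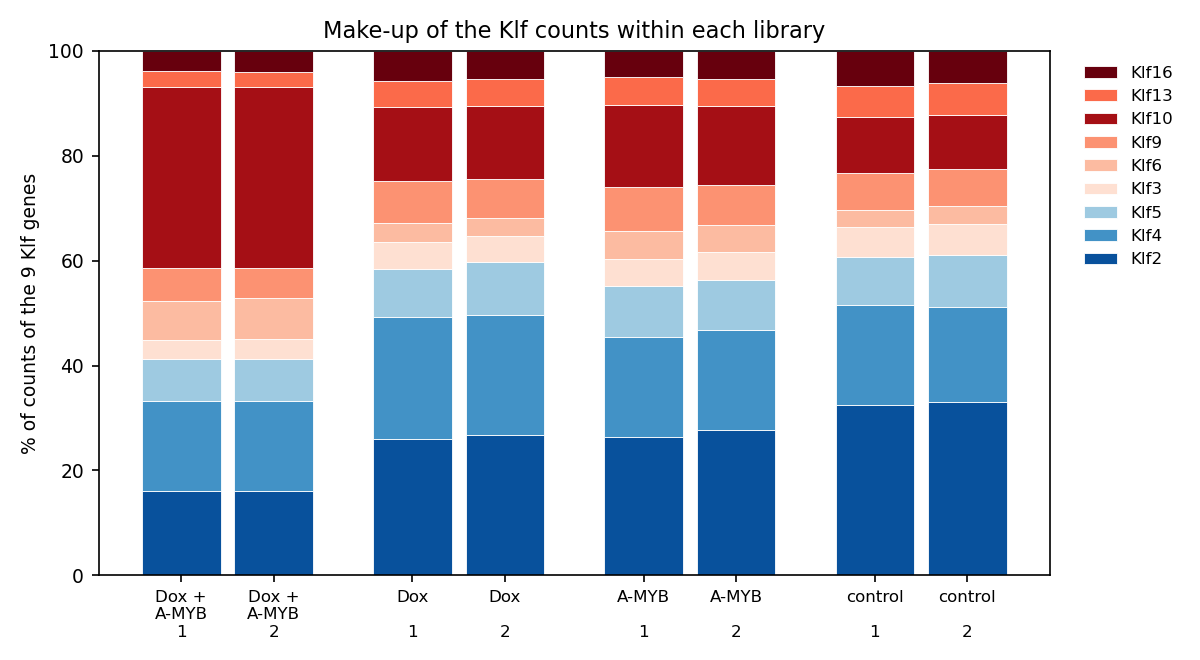
Share of the counts of the 9 Klf genes (y axis, %) taken by each gene in each of the 8 libraries (x axis, group and library number), not corrected for length. Blue shades are Klf2, Klf4 and Klf5, which fill 41.2% of both Dox + A-MYB bars and 55.2% to 61.1% of the others; the dark red block of Klf10 fills 34.5% and 34.4% of the Dox + A-MYB bars.

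Patterns over the 8 libraries were compared as the root mean square difference of log2 CPM, each gene centred on its own mean. Among the 9, Klf2 and Klf13 were the closest pair (0.05), followed by Klf3 and Klf16 (0.08) and by Klf5 and Klf9 (0.10). Klf10 was the farthest from Klf13 (1.03) and from Klf2 (1.01). The closest pair thus joined one of the 3 pluripotency-associated genes with one of the other 6. Klf4 and Klf5 differed by 0.13, and Klf2 and Klf4 by 0.34.

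Of 12461 other genes with a mean of at least 1 CPM, Tbx3 was the nearest to Klf4, at 0.03. Tbx3 is a T-box factor of the naive pluripotency network. It had 193 and 186 CPM in Dox + A-MYB libraries, 330 and 330 CPM in Dox libraries, 269 and 268 CPM in A-MYB libraries and 238 and 256 CPM in control libraries, with no overlap between groups and in the same order as Klf4. Tnfaip8 (0.05) and Kirrel (0.06) came next for Klf4. The nearest genes of Klf2 were Ptgfrn (0.05), Tuba1b (0.05), an alpha-tubulin gene, and Zfp395 (0.06). Those of Klf5 were Dcaf7, Smarcc1, a subunit of BAF chromatin remodelling complexes, and Rab5b (each 0.05).

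Of 8 further Klf genes, 7 were tested, and Klf14 was not. With both treatments against control 3 rose and 1 fell, with a median of -0.05. This and each list count below is to be read against the 33.5% of all tested genes that rose and the 30.4% that fell in this comparison. Klf17, a gene of early embryos, had 138 and 121 counts in Dox + A-MYB libraries, 15 and 16 in Dox libraries, 6 and 12 in A-MYB libraries and 12 and 5 in control libraries. Its counts were low outside the Dox + A-MYB libraries, where it had 4.03 and 3.59 CPM and rose by 3.60 (SE 0.457, adjusted p = 1.70e-07). Klf12 rose by 0.83 (adjusted p = 0.00110) and Klf11 by 0.42 (adjusted p = 0.000336). Klf8 had 53.1 and 44.4 CPM in Dox + A-MYB libraries, 98.7 and 92.5 CPM in Dox libraries, 116 and 109 CPM in A-MYB libraries and 80.6 and 88.4 CPM in control libraries. It rose with A-MYB alone (0.42, adjusted p = 0.000254) and fell with both treatments (-0.79, SE 0.0816, adjusted p = 7.11e-09), as Klf9 did. Dox alone called 0 higher and 1 lower of the 7, Klf15 (-0.32, adjusted p = 0.0404), against 17.9% higher and 14.3% lower of all tested genes. A-MYB alone called 3 higher and 1 lower, against 19.5% and 15.2%.

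Genes related to KLFs in DNA binding or in protein contacts were read from set lists. Of 9 Sp genes, relatives of the KLFs with similar binding, 2 rose and 2 fell with both treatments against control. Sp5, a Wnt target, fell (-1.97, adjusted p = 3.76e-10), while Sp1 and Sp3 rose by 0.30 and 0.28 (adjusted p = 0.000860 and 0.00365). Of 11 corepressor and coactivator genes, 2 rose and 7 fell, against 25.6% higher and 48% lower among genes in the level range of the 9 Klf genes. Sin3a, whose product binds Klf9, Klf10, Klf13 and Klf16, fell (-1.07, adjusted p = 5.62e-14), as did the acetyltransferase gene Kat2a (-0.73, adjusted p = 2.11e-10), while Ep300, which encodes the coactivator p300, rose by 0.45 (adjusted p = 2.21e-06). The medians were -0.04 for the Sp genes and -0.19 for the corepressors and coactivators.

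Partners of KLFs in naive pluripotency fell alongside Klf2, Klf4 and Klf5 with both treatments: 12 of 13 fell and 0 rose, with a median of -0.39, where 30.4% of all tested genes and 48% of genes in the level range of the 9 Klf genes fell. Much of this list lay outside that range, so the 48% is not matched to its level. Nanog, for example, had group means of 479.2 to 1005 CPM, and Nr0b1 of 54.74 to 58.5 CPM. The 3 partners with the smallest p were Nanog (-1.04, adjusted p = 5.23e-14), Tfcp2l1 (-1.02, adjusted p = 1.80e-12) and Prdm14 (-1.08, adjusted p = 1.16e-11). The exception was Nr0b1 at -0.03 (adjusted p = 0.760). With Dox alone 5 rose and 1 fell, against 17.9% higher and 14.3% lower of all tested genes, the rises led by Tbx3 (0.42, adjusted p = 3.97e-06), Sall4 (0.30, adjusted p = 0.000182) and Zfp42 (0.21, adjusted p = 0.00461), in the same libraries in which Klf4 rose. With A-MYB alone 3 rose and 1 fell, against 19.5% higher and 15.2% lower, the fall being Pou5f1 (-0.36, adjusted p = 0.00482).

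Of 12 genes of the LIF, Wnt and MAPK inputs to Klf4 and Klf2, 3 rose and 6 fell with both treatments, with a median of -0.25. That is near the background, since 63.9% of all tested genes and 73.6% of those in the level range of the 9 Klf genes were called. Socs3, a STAT3 target that dampens LIF signalling, had 55.1 and 55.3 CPM in Dox + A-MYB libraries, 111 and 117 CPM in Dox libraries, 116 and 126 CPM in A-MYB libraries and 161 and 163 CPM in control libraries. It fell with both treatments (-1.55, adjusted p = 2.28e-16) and with Dox alone (-0.50, adjusted p = 2.09e-06), where Klf4 rose. Etv5, an ERK target, fell (-0.64, adjusted p = 1.61e-10), while Dusp6, another ERK target, rose by 1.59 (adjusted p = 3.76e-10). Etv4 and Spry4 of this list were higher as well. Their means were 54.69 and 20.95 CPM in Dox + A-MYB cells and 33.25 and 14.6 CPM in control cells. Spry2 hardly differed, at 55.33 and 55.41 CPM.

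Of 8 TGF-beta and BMP early response genes, 2 rose and 4 fell with both treatments, with a median of -0.43. Id3 and Id2, BMP targets, rose by 2.13 and 1.67 (adjusted p = 9.34e-17 and 3.63e-11), while Skil, a TGF-beta target, fell (-0.89, adjusted p = 3.80e-11), opposite to Klf10. Id1 did not go with Id2 and Id3. Its mean was 15.49 CPM in Dox + A-MYB cells and 21.48 CPM in control cells, and Dox alone lowered it (-0.89, adjusted p = 2.58e-06). Of 8 tested immediate early genes, 4 rose and 0 fell, with a median of 0.53, among them Egr1 (3.15, adjusted p = 6.49e-10), Jun (1.14, adjusted p = 1.37e-09) and Atf3 (1.13, adjusted p = 0.000134). Egr1 and Atf3 were at low level, with means of 0.804 and 2.83 CPM in control cells. In Dox + A-MYB cells they had 7.195 and 6.18 CPM. Of 6 glucocorticoid response genes, 0 rose and 4 fell, with a median of -0.41. These included Fkbp5 (-0.67, adjusted p = 2.21e-10) and Sgk1 (-0.60, adjusted p = 5.83e-10). Like Klf9, Sgk1 rose with Dox alone (0.43, adjusted p = 1.67e-06) and with A-MYB alone (0.41, adjusted p = 3.25e-06), whereas Fkbp5 fell with each (-0.30 and -0.16, adjusted p = 0.000354 and 0.0386).

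Markers of cell types moved with the same groups. The summed level of 7 ES cell markers was 3700 to 4050 CPM in Dox + A-MYB libraries, 5920 to 5980 CPM in Dox libraries, 5410 to 5620 CPM in A-MYB libraries and 5700 to 5920 CPM in control libraries, so the markers of the labelled cell type were present at high level in all 8 libraries. Of 7 tested, 1 rose and 6 fell with both treatments against control. Pou5f1, Sox2, Nanog, Zfp42 and Esrrb are also among the naive pluripotency partners above, so these falls are largely the same genes counted again. The 9 endoderm markers summed to 17.0 to 19.7 CPM in Dox + A-MYB libraries and 7.03 to 9.79 CPM elsewhere. Of 5 tested, 3 rose and 0 fell: Dab2 (log2 fold change 2.79), Pdgfra (1.75) and Gata4 (0.60), while Gata6, Sox17, Sox7 and Foxa2 were under 1 CPM in all 8 libraries. The means of Dab2, Pdgfra and Gata4 were 1.19, 0.411 and 4.97 CPM in control cells. In Dox + A-MYB cells they were 8.25, 1.41 and 7.52 CPM. In total 6 of the 9 were under 1 CPM in Dox + A-MYB cells and 7 in each other group. Afp was at 0 in Dox and control cells and Ttr in A-MYB and control cells.

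The trophoblast and neuroectoderm lists moved in both directions. The 8 trophoblast markers summed to 39.1 to 41.9 CPM in Dox + A-MYB libraries, against 50 to 69.4 CPM elsewhere, but 4 of 7 tested rose and 3 fell, with a median of 0.80. Gata3 (2.02), Hand1 (2.03), Krt7 (2.15) and Krt18 (0.80) rose, while Krt8 (-1.35), Eomes (-1.35) and Cdx2 (-0.87) fell. The 3 largest rises were at low level. Gata3, Hand1 and Krt7 had means of 0.713, 0.318 and 0.244 CPM in control cells. In Dox + A-MYB cells they had 2.90, 1.30 and 1.08 CPM. The 6 neuroectoderm markers summed to 58.8 to 59.4 CPM in Dox + A-MYB libraries, against 124 to 262 CPM elsewhere, and most of that sum was Tubb3, with 51.8 and 52.0 CPM in Dox + A-MYB libraries and 256 and 251 CPM in control libraries. Of 4 tested, Pax6 (3.24) and Zic1 (1.95) rose and Tubb3 (-2.29) and Sox1 (-1.15) fell, with a median of 0.40. Both rises were at low level, with means of 0.413 CPM for Pax6 and 0.207 CPM for Zic1 in control cells. In Dox + A-MYB cells the means were 3.99 and 0.797 CPM. Neurog2 was at 0 in Dox and control cells.

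The 6 mesoderm markers summed to 2.48 to 3.00 CPM in Dox + A-MYB libraries, against 3.63 to 4.88 CPM elsewhere, and of 6 tested only Kdr was called, lower (-1.20). The 7 fibroblast markers summed to 2.79 to 3.77 CPM in Dox + A-MYB libraries, against 3.00 to 5.85 CPM elsewhere. Of 3 tested, Col3a1 rose, with 1.05 and 0.297 CPM in Dox + A-MYB libraries and 0 and 0.0389 CPM in control libraries, and Col1a1 (-2.02) and Thy1 (-1.19) fell. Lum and Postn were at 0 in Dox and control cells, Col3a1 in Dox cells, and Dcn in all groups but Dox + A-MYB, while no marker of any list was at 0 in both Dox + A-MYB libraries. All these marker changes are from edgeR and passed the adjusted p threshold, and their part in the Klf changes was not tested.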

How the data were processed

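RNA-seq of 8 ES cell libraries was used, and, for 1 closing observation, 4 ChIP-seq libraries of the histone mark H3K27ac from pachytene spermatocytes. The files deposited by the authors hold raw counts of reads per gene symbol. The 5 special lines for unassigned reads, 17.2% to 19.5% of all reads, were left out of library sizes. Per the submitters' processing notes, bcl2fastq 2.20.0, HISAT2 2.1.0, HTSeq, Bowtie2 2.3.3.1, MACS 1.4.2 and mm10 were named; no role, counting setting or strand mode is given in the sources used here. The authors' deposited peak lists give tag counts, a score, and the fold enrichment as a ratio; only peak positions were used.

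Counts were scaled by TMM and fitted with edgeR 4.0.16 (R 4.3.3; filterByExpr on the 4 groups, glmQLFit robust, 4 residual degrees of freedom, common biological coefficient of variation 0.0631). Contrasts used two-sided glmQLFTest with Benjamini-Hochberg adjustment over 14664 genes. The standard error (SE) is the size of the log2 fold change over the root of its F statistic. The script was tested on simulated data. Log2 CPM for pattern likeness had a prior count of 2. Alternatives were DESeq2 1.42.0, other scalings and filters, smaller fits, a replicate block and the removal of each library.

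Members, the 8 gene lists (76 genes) and the 6 marker lists were chosen with earlier results of these data known. Named genes are the 9 members, Mybl1, up to 3 genes per list and contrast with the smallest p among those called, and the 3 nearest in pattern to Klf2, Klf4 and Klf5. Outside that rule, Nr0b1, Klf14, Etv4, Spry2, the cell type markers named and the genes named in the closing observations were chosen after their values were seen.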

Additional observations from a re-analysis of the deposited data

Results flagged for a closer look

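The Dox effect differed between cells with and without A-MYB, by the interaction test (edgeR, adjusted over all tested genes), in 8 of the 9 Klf genes and in 3 of the 7 other tested family members. The interaction, in log2, was -0.95 for Klf4, -0.90 for Klf2, -1.02 for Klf9, -1.07 for Klf13, -0.76 for Klf5, -0.78 for Klf3, -0.66 for Klf16 and 0.29 for Klf10. Outside the 9 it was -1.39 for Klf8 (SE 0.114, adjusted p = 2.50e-09), 2.90 for Klf17 (SE 0.744, adjusted p = 0.00289) and 0.51 for Klf15 (SE 0.166, adjusted p = 0.0152). Over all tested genes 40.9% passed this test.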

How the results depend on the processing

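Of 720 values of single Klf genes under an alternative, 693 kept their direction and their side of the threshold, 20 lost a call, 1 gained one, and 6 uncalled values changed sign. The last were Klf2 (-0.0070 to 0.090 with 1 library left out) and Klf9 (-0.053 to 0.077, and -0.026 without Dox library 1) in Dox against A-MYB, Klf3 with Dox alone (-0.17 to 0.0056), Klf5 with A-MYB alone (-0.044 to 0.13) and the Klf6 interaction (-0.011 with no filter). The number of the 9 genes called was 5 with Dox alone, and 2 to 4 with 1 library left out (2 without Dox library 1, 3 without either control library). It was 5 with A-MYB alone, and 3 to 5 with 1 left out (3 without A-MYB library 1 or control library 1). It stayed within 1.5 times for all other comparisons and alternatives. Over all genes, the 4717 calls with Dox alone dropped to 2719 without Dox library 1 and 2669 without control library 1, the 5086 with A-MYB alone to 3200 and 3305 without A-MYB library 1 or control library 1, and the 1759 between Dox and A-MYB to 759 without A-MYB library 1, 1006 without Dox library 1 and 561 without Dox library 2. The cause was not tested. The share of Klf2, Klf4 and Klf5 in Dox + A-MYB minus that in control cells was -19.7 percentage points, and -11.9 when Klf2, -22.9 when Klf4 and -20.7 when Klf5 was left out. Leaving out Klf10 or Klf6, whose shares rose, was not run, so a drop relative to the other falling members was not tested. Replicate numbers share only a number: deviations of same-numbered libraries correlated between -0.03 and 0.08, and with the replicate block the calls were 5 with Dox alone, 9 with Dox in A-MYB cells, 5 with A-MYB alone, 9 with A-MYB in Dox cells, 9 with both, 2 between Dox and A-MYB, and 8 for the interaction, the same counts as without it. Counts per kilobase were not run, since no transcript lengths were used here. The fit of a contrast's own groups was not run for the interaction, which needs all 4. With 2 libraries per group, precision is limited by that number rather than by depth.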

Other observations

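Beside Klf2, the annotated neighbours Ap1m1 and Eps15l1 had log2 fold changes of -0.41 and 0.16 with both treatments against control (adjusted p = 1.00e-05 and 0.0217), where Klf2 was at -1.32. Among genes whose pattern over the libraries was nearest to the rising members, Mdm2, a p53 target, came first for Klf10 (root mean square difference 0.05). Ccng1, another p53 target, came first for Klf6 (0.07). Nearly as close were Txnip (0.05) and Nbea (0.06) for Klf10, and Tmem126a (0.08) and Sh3gl3 (0.09) for Klf6. No set of p53 targets was examined.

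In pachytene spermatocytes, 0 of the 6 Klf starts in the promoter table had an H3K27ac peak of the deposited lists within 1000 bases, in any of the 2 A-myb mutant and 2 wild-type libraries. Of 27025 genes in that table, 0.973% and 0.962% had one in the A-myb mutant libraries and 2.72% and 1.49% in the wild-type libraries. Over whole gene spans, a check added after seeing the data, 0 of the 9 Klf genes had a peak, against 8.18% and 8.12% of 49997 annotated genes in the A-myb mutant libraries and 10.9% and 8.99% in the wild-type libraries. With the low shares near starts, a count of 0 there was close to fixed in advance and sets the Klf genes apart from no other genes. The shares over spans were higher, but with only 9 genes a count of 0 does not set the Klf genes apart there either. The shares describe the deposited lists alone, and whether these lists hold all peaks near starts was not tested.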
